A study of Homo sapiens with 17 samples.

Results

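MALAT1, NEAT1, KCNQ1OT1, NORAD, OIP5-AS1 and TUG1 are long non-coding RNAs (lncRNAs) whose place in the cell is well known. They were chosen by gene name, and the 6 are set here among the 18869 genes of the Ribo-STAMP table. MALAT1, NEAT1 and KCNQ1OT1 stand for RNAs retained in the nucleus, and NORAD, OIP5-AS1 and TUG1 for RNAs that are cytoplasmic or found on both sides of the nuclear envelope. Each was found once, and 5 of the 6 carry the biotype lncRNA. TUG1 is listed as protein-coding, both in the table and in GENCODE release 44, so the biotype does not bear out its name as a non-coding RNA.

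The cells were HEK293T, an established human embryonic kidney line, in stable lines made with lentivirus. RPS2-STAMP cells express the C-to-U editing enzyme APOBEC1 joined to the small ribosomal subunit protein RPS2, and Control-STAMP cells express APOBEC1 alone, in both cases after 24 h with 50 ng/ml doxycycline and with crosslinking in 0.1% formaldehyde. RNA came from the lysate (Input) and from immunoprecipitations (IPs) of the nuclear poly(A) binding protein PABPN and of the cytoplasmic PABPC, with 3 samples of each fraction in RPS2-STAMP cells and, in Control-STAMP cells, 3 of the Input, 3 of the PABPN IP and 2 of the PABPC IP. The study's text names the cytoplasmic portion of the cells as the starting material, which the sample labels do not state, and whether nuclear RNA entered it was not tested.

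PABPN coats poly(A) tails as they are made in the nucleus, and PABPC holds them in the cytoplasm, where it also binds translation factors. Several nuclear lncRNAs end without a poly(A) tail: MALAT1 and the long form of NEAT1 are cut by RNase P ahead of a tRNA-like fold, and an A-rich tract at the new end is protected in a triple helix. NEAT1 also has a short form with a poly(A) tail, KCNQ1OT1 silences genes of an imprinted domain from within the KCNQ1 gene, NORAD carries many binding sites of Pumilio proteins, and OIP5-AS1 (also called cyrano) holds a site for the microRNA miR-7 and is linked to its decay.

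Because both immunoprecipitated proteins bind poly(A), the ends of these RNAs are shown before their values. The sense strand of 18806 gene bodies, with 20 bases past each annotated end, was searched for at least 5 A followed by GCAAAA and, within 4 bases, by GCTGGTGG, the start of the tRNA-like fold. It was found in 2 genes (0.0106%), MALAT1 and NEAT1. The pattern follows the ends known for these 2 RNAs, and its shortest A run is that of NEAT1. That both held it was thus set in advance, and the share describes this pattern only. The MALAT1 stretch lies in the only exon of its longest transcript, at chr11:65506091-65506120 of hg38 on the plus strand, and has 13 A before GCAAAA, 1957 bases before the annotated gene end. That of NEAT1, at chr11:65445515-65445544 on the plus strand, has 5 A, and its last capital is the last annotated base of the long form. Capitals mark the A run and GCAAAA.
MALAT1 tract: ctagcttAAAAAAAAAAAAAGCAAAAgatg
NEAT1 tract: gaaagagtgagcaggAAAAAGCAAAAggcg
The match is a description of the letters and not a measurement of the end of the RNA.

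The poly(A) signal was searched as AATAAA or, in its absence, ATTAAA on the sense strand of the last 50 bases of annotated transcripts. The longest transcript of NORAD, of OIP5-AS1 and of TUG1 held one, and the longest transcript of MALAT1, NEAT1 and KCNQ1OT1 did not. Among genes with a TPM (a transcript level scaled to length and to the total) of 5 or more in each IP, 54.2% of the longest transcripts of 498 lncRNAs and 74.8% of those of 9605 protein-coding genes held one. Counting all annotated transcripts, 38 of 66 for MALAT1, 2 of 9 for NEAT1 and 8 of 14 for KCNQ1OT1 ended with the signal, against 1 of 1 for NORAD, 43 of 72 for OIP5-AS1 and 5 of 20 for TUG1. The window of NEAT1 is that of a short form, a transcript of 3301 bases. The windows lie at chr20:36045630-36045659 (NORAD, minus strand), chr15:41306490-41306519 (OIP5-AS1, plus), chr22:30979361-30979390 (TUG1, plus) and chr11:65426484-65426513 (NEAT1, plus), all in annotated exons (hg38), with the signal in capitals.
NORAD end: taacttttaaaaAATAAAggttattttaaa
OIP5-AS1 end: atatattttagcAATAAAgcagcatgggct
TUG1 end: aactttattttaAATAAAgaatttttaaaa
NEAT1 short end: tcttcccctttacagcacaAATAAAgtttg

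Elements for which NORAD and OIP5-AS1 are known are shown for orientation, and no value here measures their binding. The Pumilio motif was searched as TGTANATA on the sense strand, and the longest transcript of NORAD (5401 bases, 1 exon) held 15 matches, or 2.78 per kilobase, against 0.124 per kilobase over the 498 lncRNAs together. Only 1 of these lncRNAs had more per kilobase. In windows of 30 bases laid end to end, 5.00% of the 180 windows of NORAD held a match, against 0.258% of those of the lncRNAs. The other members had between 0 (MALAT1) and 0.268 (TUG1) matches per kilobase. The 3 matches nearest the 5′ end of NORAD, at chr20:36050182-36050211, chr20:36049803-36049832 and chr20:36049702-36049731 on the minus strand, are printed with the motif in capitals.
NORAD match 1: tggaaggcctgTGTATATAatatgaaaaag
NORAD match 2: cctcactactgTGTATATAgttgacaatgc
NORAD match 3: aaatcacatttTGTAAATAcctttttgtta
In the longest transcript of OIP5-AS1 (8881 bases, 4 exons), the complement of the miR-7 seed, GTCTTCC, occurred 3 times, and 16.9% of the 498 lncRNAs held it at least once (0.212% of their 30-base windows). Upstream of the seed match, the site at chr15:41300570-41300599 on the plus strand matched the microRNA's complement over a further run of 14 bases, against 5 and 3 at the other sites. Capitals mark the seed (bases 2 to 8) of the mature microRNA, from RefSeq on GRCh38.p14, and its complement in the site.
hsa-miR-7-5p: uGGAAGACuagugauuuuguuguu
OIP5-AS1 site 2: taagaacaacaaaatcaccaatGTCTTCCa

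The amount of each RNA is given as the authors' average TPM, in which exonic and intronic reads are added, with 1 value per gene and fraction. The table holds no values of single samples, so no value has an SD or an n, no test was made and no difference below has a replicate check. In bulk RNA, fewer cells that hold an RNA and less of it per cell cannot be told apart.

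Of the 3 fractions, each nuclear RNA had its lowest TPM with PABPC and its highest with PABPN. MALAT1 (ENSG00000251562, chr11:65497640-65508073, plus strand), an abundant RNA of nuclear speckles, had a TPM of 55.0 (Input), 10.3 (PABPC IP) and 208 (PABPN IP). Its Input level exceeded that of 85.9% of the 10391 genes with a biotype and 5 TPM or more in each IP. NEAT1 (ENSG00000245532, chr11:65422774-65445540, plus strand), the scaffold of paraspeckles, had a TPM of 4.27 (Input), 3.25 (PABPC IP) and 55.8 (PABPN IP). KCNQ1OT1 (ENSG00000269821, chr11:2597308-2700003, minus strand) was scarce, with a TPM of 0.288 (Input), 0.143 (PABPC IP) and 2.51 (PABPN IP). In all 3 the order was PABPN IP, Input, PABPC IP, and the PABPN IP exceeded the PABPC IP 20.2 times in TPM for MALAT1, 17.2 times for NEAT1 and 17.6 times for KCNQ1OT1. That order was found in 4.12% of the 10391 genes and 2.40% of their 499 lncRNAs, a set of which only MALAT1 of the 3 is part.

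In the other group every member had its lowest TPM in the Input and its highest in the PABPN IP, with the PABPC IP between them, which was the common order, found in 54.6% of the 10391 genes and 80.0% of the lncRNAs. NORAD (ENSG00000260032, chr20:36045618-36051018, minus strand), which sequesters Pumilio proteins, had a TPM of 103 (Input), 177 (PABPC IP) and 254 (PABPN IP). OIP5-AS1 (ENSG00000247556, chr15:41283958-41322392, plus strand) had a TPM of 21.9, 45.3 and 70.9 in the same order. TUG1 (ENSG00000253352, chr22:30969245-30979395, plus strand), an RNA found in nucleus and cytoplasm, had 34.0, 56.5 and 237. The PABPN IP exceeded the PABPC IP 1.43 times for NORAD and 1.56 times for OIP5-AS1, and 4.20 times for TUG1, which lay between them and the nuclear RNAs. By TPM, the order in the PABPN IP was NORAD, TUG1, MALAT1, OIP5-AS1, NEAT1 and KCNQ1OT1, whereas in the PABPC IP MALAT1 stood below OIP5-AS1 and TUG1 above it. Differences between neighbours in these orders have no spread to be set against.

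**Figure D1:**
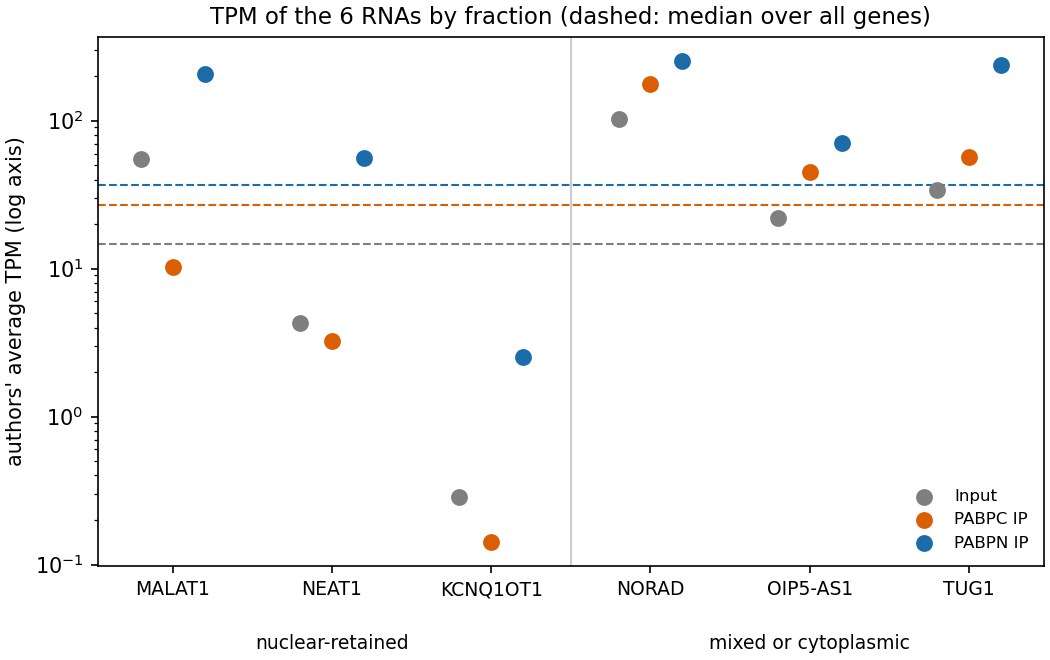
Authors' average TPM (log axis) of the 6 RNAs in the Input, the PABPC IP and the PABPN IP, 1 point per fraction, with dashed lines at the median over 10391 genes (14.7, 26.9 and 36.8). For the nuclear-retained RNAs the PABPC IP point is the lowest of the 3, and for the others the Input point is.

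To place these ratios among all genes, log2((TPM + 0.5)/(TPM + 0.5)) was centred on its median over the 10391 genes. That median was 0.22 for the PABPN IP over the PABPC IP (the partition), 1.14 for the PABPN IP over the Input and 0.97 for the PABPC IP over the Input, since genes of this set had more TPM in the IPs. MALAT1, NORAD, OIP5-AS1 and TUG1 belong to the set, while NEAT1 and KCNQ1OT1 had under 5 TPM in the PABPC IP, and KCNQ1OT1 in the PABPN IP too.

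The centred partition was 4.05 for MALAT1, 3.69 for NEAT1 and 2.01 for KCNQ1OT1, on the log2 scale. It was 1.84 for TUG1, 0.42 for OIP5-AS1 and 0.30 for NORAD. Thus 4 of the 6 members, MALAT1, NEAT1, KCNQ1OT1 and TUG1, were past 2-fold towards the PABPN IP, as were 16.8% of all genes of the set and 26.7% of its 499 lncRNAs. No member was past 2-fold towards the PABPC IP, where 13.0% of the genes but only 1.60% of the lncRNAs lay. Of the 4 members within the set, 2 were past 2-fold, MALAT1 and TUG1. Without centring the same number of members passed, against 22.5% of genes higher in the PABPN IP and 7.04% higher in the PABPC IP.

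Only 2 of the 10391 genes had a higher partition than MALAT1, and 1 of them was an lncRNA, MIR17HG, the host of a microRNA cluster, at 4.17 (looked up after the values were seen). For NEAT1, 8 genes of the set were higher. TUG1 exceeded 96.2% of the genes and 93.0% of the lncRNAs. NORAD and OIP5-AS1 were close to ordinary genes, above 61.9% and 66.2% of all genes and below the lncRNA median of 0.44. The value of KCNQ1OT1 depended on the pseudocount because its TPM were low, and was 3.20 with a pseudocount of 0.1 and 0.36 with one of 5. NEAT1 kept 2.70 with a pseudocount of 5.

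**Figure D2:**
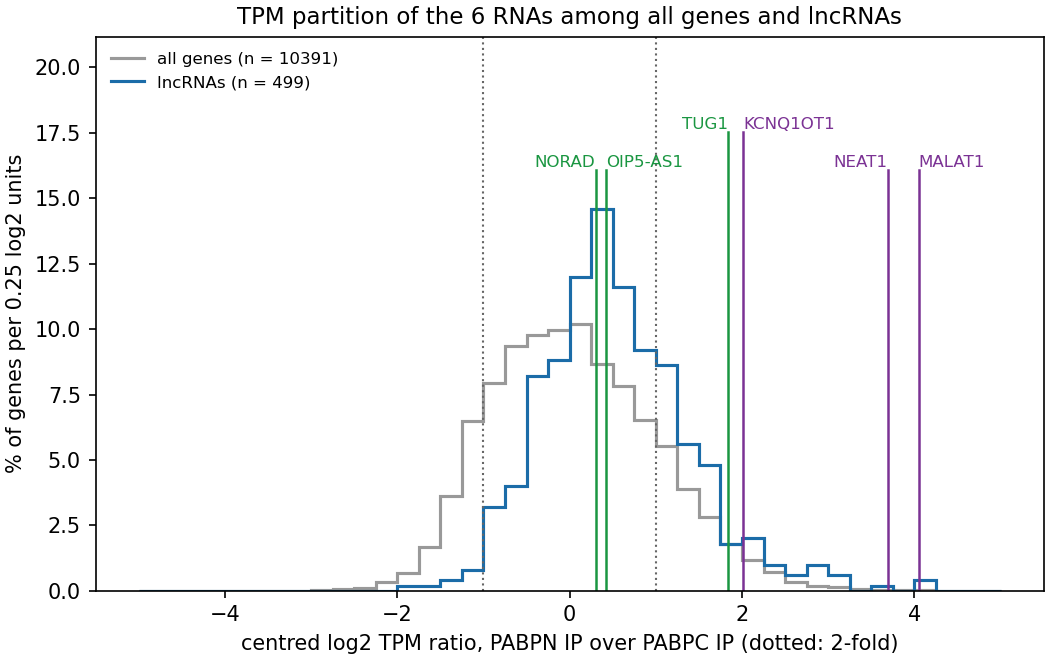
Distribution of the centred log2 TPM ratio of the PABPN IP over the PABPC IP as % of genes per bin, for 10391 genes (grey) and 499 lncRNAs (blue), with a vertical line for each of the 6 RNAs (purple, nuclear-retained; green, mixed or cytoplasmic). MALAT1 (4.05) and NEAT1 (3.69) lie in the far right tail, and NORAD (0.30) and OIP5-AS1 (0.42) near the peak of the lncRNAs.

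Set against the Input, the groups parted mainly in the PABPC IP. After centring, the PABPC IP over the Input was -3.32 for MALAT1, -1.31 for NEAT1 and -1.26 for KCNQ1OT1, and these 3 members were at least 2-fold lower, as were 4.08% of all genes. That share is of genes with 5 TPM or more in the PABPC IP, a limit that NEAT1 and KCNQ1OT1 did not reach, and of the 4 members within the set MALAT1 was the 1 past 2-fold. For NORAD it was -0.19, for TUG1 -0.24 and for OIP5-AS1 0.07. No member was at least 2-fold higher, as were 0.269% of genes. In the set, 50 genes, 4 of them lncRNAs, had a lower ratio than MALAT1. In TPM, MALAT1 fell from the Input to the PABPC IP 5.33-fold, NEAT1 1.31-fold and KCNQ1OT1 2.02-fold. Without centring, and likewise with a pseudocount of 5, MALAT1 alone was at least 2-fold lower. NEAT1 (-0.35) and KCNQ1OT1 (-0.29) were within 2-fold without centring, so that their calls rest on the subtracted median of 0.97. Without centring OIP5-AS1 (1.04) was past 2-fold in the other direction, and NORAD (0.78) and TUG1 (0.72) lay above 0.

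The PABPN IP over the Input separated the RNAs in another way. NEAT1 (2.42) and TUG1 (1.64) were at least 2-fold higher after centring, or 2 of the 6 members against 8.68% of all genes. The values were 0.79 for KCNQ1OT1, 0.77 for MALAT1, 0.53 for OIP5-AS1 and 0.16 for NORAD, where that of KCNQ1OT1 turned to -0.39 with a pseudocount of 5, and no member was at least 2-fold lower, as were 5.22% of genes. For NEAT1, 31 genes of the set had a higher ratio. Without centring all 6 members were more than 2-fold above the Input in the PABPN IP, as were 58.1% of genes, and 0.472% were 2-fold lower. For the PABPC IP over the Input without centring, 47.0% of genes were 2-fold higher and 0.645% lower.

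Editing was read as normalized EPKM, the C-to-U edits scaled to gene length and mapped reads in RPS2-STAMP cells after the authors subtracted the level in the control, so that values at 0 mean no edits above the control. A higher EPKM goes with more ribosome contact, and it also scales with the amount of RNA. The number of edits behind each value is not known.

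MALAT1 had an EPKM of 0.0880 (Input), 0.00451 (PABPC IP) and 0.0214 (PABPN IP). Although it is a nuclear RNA, its Input EPKM exceeded that of 79.9% of the genes and 93.4% of the lncRNAs of the set. In the PABPC IP it exceeded only 21.3% of the genes of the set (41.4% of every listed gene). The Input value was 19.5 times that of the PABPC IP. NEAT1 had an EPKM of 0.0128 (Input) and 0.00495 (PABPC IP) and was listed at 0 in the PABPN IP, the fraction in which its TPM was highest. KCNQ1OT1 had 0.000250 (Input) and 0.000151 (PABPC IP) and was likewise listed at 0 in the PABPN IP. The 2 members at 0 in the PABPN IP compare with 27.9% of all genes and 38.9% of lncRNAs. In all 3 nuclear RNAs the Input had the highest EPKM of the fractions, as it had in 26.2% of genes and in no other member.

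NORAD had the highest EPKM of the 6 in both the Input and the PABPC IP, at 0.225 (Input), 0.243 (PABPC IP) and 0.0530 (PABPN IP). In the PABPC IP this exceeded 96.5% of the genes, and 10 of the 499 lncRNAs were higher. OIP5-AS1 had an EPKM of 0.0591 (Input), 0.150 (PABPC IP) and 0.00159 (PABPN IP). Its editing above the control was thus higher with PABPC than with PABPN, where little remained after the subtraction. TUG1 had 0.0565, 0.0585 and 0.0679 in the same order and was the member with the most even EPKM. In the PABPC IP, OIP5-AS1 exceeded 88.4% and TUG1 56.2% of the genes.

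**Figure D3:**
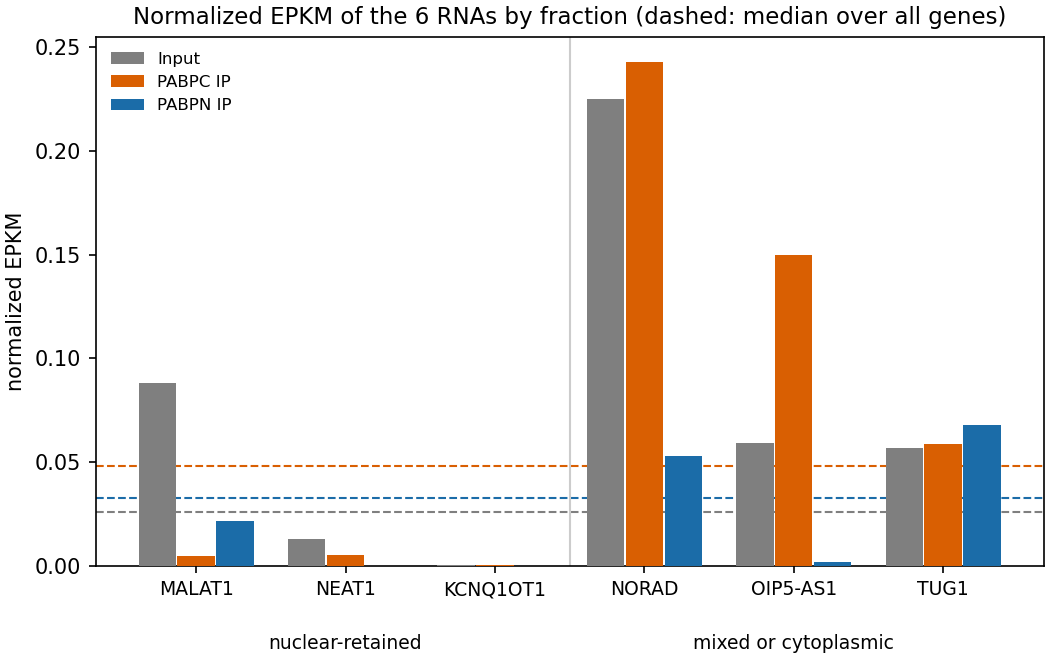
Normalized EPKM of the 6 RNAs in the Input, the PABPC IP and the PABPN IP (bars, 1 pooled value each), with dashed lines at the median over 10391 genes (0.0257, 0.0481 and 0.0328). The orange PABPC IP bars of NORAD, OIP5-AS1 and TUG1 lie above the median line of that fraction and those of MALAT1, NEAT1 and KCNQ1OT1 below it.

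The EPKM in the PABPC IP minus that in the PABPN IP was 0.190 for NORAD and 0.149 for OIP5-AS1. It was -0.0169 for MALAT1 and -0.00941 for TUG1. On the log2(EPKM + 0.01) scale the PABPC IP over the PABPN IP gave 3.79 for OIP5-AS1 and 2.01 for NORAD, and these 2 members were past 2-fold towards the PABPC IP, as were 35.9% of genes. MALAT1, at -1.11, was the 1 member at least 2-fold lower, as were 21.7% of genes. NEAT1 (0.58), KCNQ1OT1 (0.02) and TUG1 (-0.19) were within 2-fold, where the values of NEAT1 and KCNQ1OT1 rest on a PABPN IP listed at 0. The calls of MALAT1 and NEAT1 depended on the pseudocount. MALAT1 came to -0.22 with one of 0.1, and NEAT1 to 2.57 with one of 0.001. NORAD (1.17 and 2.18) and OIP5-AS1 (1.30 and 5.87) stayed past 2-fold with pseudocounts of 0.1 and 0.001.

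EPKM rises with abundance, so it was also divided by the TPM of the same fraction. Per 100 TPM, MALAT1 had an EPKM of 0.160 (Input), 0.0437 (PABPC IP) and 0.0103 (PABPN IP). NORAD had 0.219, 0.137 and 0.0209, and OIP5-AS1 0.270, 0.331 and 0.00224. TUG1 had 0.166, 0.103 and 0.0286. On this scale MALAT1 and TUG1 were close to each other and to the median over all genes of 0.158 in the Input, and MALAT1 was the lowest of the 6 in the PABPC IP, where the median was 0.138. With 5 added to the TPM, KCNQ1OT1 was the lowest there.

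NEAT1 had 0.300 (Input) and 0.152 (PABPC IP) EPKM per 100 TPM, and KCNQ1OT1 0.0867 and 0.106. Both ratios rest on low values, and with 5 added to the TPM they became 0.138 and 0.0600 for NEAT1, and 0.00473 and 0.00294 for KCNQ1OT1. In the PABPN IP all 6 members lay below the median over all genes of 0.0704, and below the lncRNA median of 0.0450. TUG1, at 0.0286, was the nearest to it.

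**Figure D4:**
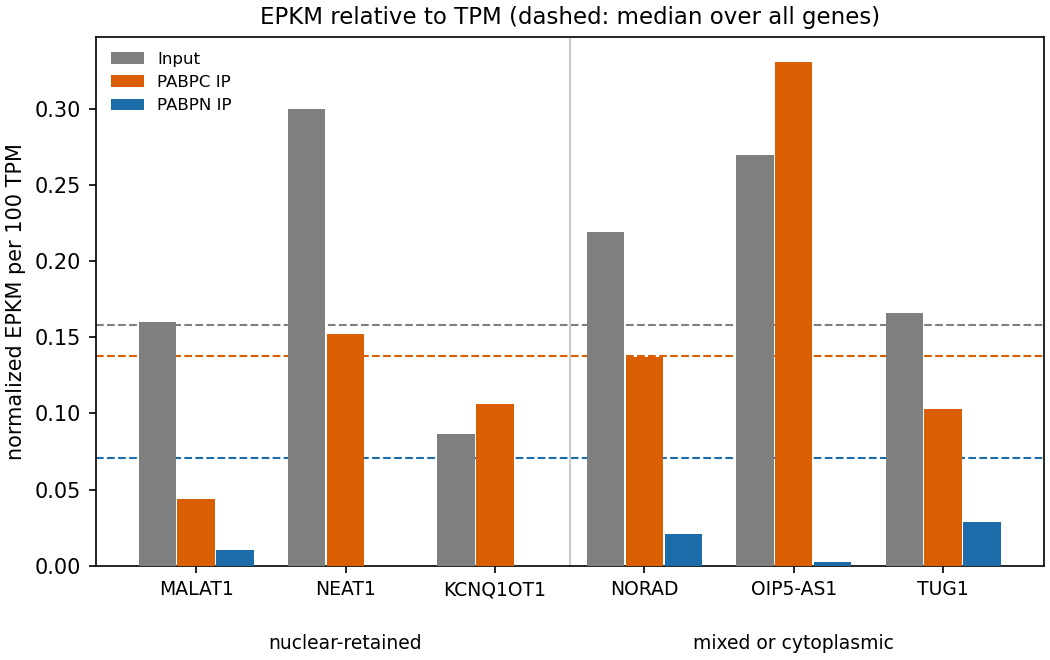
Normalized EPKM per 100 TPM of the same fraction for the 6 RNAs, with dashed lines at the medians over 10391 genes, 0.158 (Input), 0.138 (PABPC IP) and 0.0704 (PABPN IP). Each blue PABPN IP bar is below its median line, and OIP5-AS1 has the tallest PABPC IP bar, at 0.331.

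The groups were then compared by their medians. The centred partition had a median of 3.69 for the nuclear RNAs, ranging from 2.01 to 4.05, and of 0.42 for the others, ranging from 0.30 to 1.84. The ranges did not overlap, although TUG1 came within 0.17 of KCNQ1OT1, and with a pseudocount of 5 KCNQ1OT1 fell among the other group. The PABPC IP over the Input did not overlap either, from -3.32 to -1.26 against -0.24 to 0.07, whereas the PABPN IP over the Input did, with medians of 0.79 and 0.53. In the former, most of the distance of NEAT1 and KCNQ1OT1 from 0 came from the centring.

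Median EPKM in the PABPC IP was 0.00451 for the nuclear RNAs and 0.150 for the others, a ratio of 33.3, with no overlap (0.000151 to 0.00495 against 0.0585 to 0.243). In the Input the medians were 0.0128 and 0.0591, and the ranges overlapped because MALAT1 stood above OIP5-AS1 and TUG1. For the PABPN IP they were 0 and 0.0530, and MALAT1 stood above OIP5-AS1. Median TPM in the PABPC IP differed as well, at 3.25 and 56.5, and per 100 TPM the PABPC IP medians were 0.106 and 0.137 with overlapping ranges. With 5 added to the TPM the medians were those of MALAT1 (0.0294) and NORAD (0.134). The highest nuclear value (NEAT1, 0.0600) then lay below the lowest of the others (TUG1, 0.0951). By its construction the added 5 lowers the ratios of scarce RNAs such as NEAT1 and KCNQ1OT1 most, so it does not decide whether the groups overlap. The part of abundance in the difference in EPKM was not tested.

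Neighbouring and overlapping genes bear on what each value counts. KCNQ1OT1 lies wholly within KCNQ1 on the other strand. MALAT1 is covered over 83.7% of its length, by TALAM1 and ENSG00000270117 on the other strand and short annotated genes on its own. OIP5-AS1 is covered over 99.9% of its length on its own strand, by ENSG00000285920 and NUSAP1, and OIP5 overlaps it on the other strand. NEAT1 is covered over 2.13%, TUG1 over 29.4% and NORAD not at all. The authors left regions shared by overlapping genes, and readthrough transcripts, out of their annotation and do not state a strand setting. All 1177 genes of the table that other genes cover over at least 95% of their length but under 5% on the same strand had a TPM, against 40.8% of the 2747 genes covered over at least 95% on the same strand. Which bases of OIP5-AS1 were counted is not known, and although the libraries were made with a kit that keeps the strand, without a stated strand setting for the counting it is not known whether reads of KCNQ1OT1 and KCNQ1, MALAT1 and TALAM1, or OIP5-AS1 and OIP5 were separated.

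The genes next to the members were looked up as well. Of 8 neighbours listed, 7 were in the table, and MORC2, beside TUG1, was the 1 past 2-fold towards the PABPN IP, as were 16.8% of all genes, with a partition of 1.05. None was past 2-fold towards the PABPC IP, as were 13.0%. FRMD8 (-0.43), near NEAT1, and OIP5 (-0.60) were below the median gene. The EPKM of OIP5 was 0.135 (PABPC IP) and 0.0480 (PABPN IP), where OIP5-AS1 had 0.150 and 0.00159. KCNQ1, the host of KCNQ1OT1, had a TPM of 1.03 (Input), 2.56 (PABPC IP) and 1.55 (PABPN IP), so that it was highest with PABPC while KCNQ1OT1 was highest with PABPN. Of 5 imprinted-region genes found in the table (KCNQ1, CDKN1C, PHLDA2 and SLC22A18 of the KCNQ1OT1 domain, and IGF2 of the adjoining domain), none reached 5 TPM in each IP. Their partition ran from -0.90 for PHLDA2 to 0.26 for SLC22A18, ratios that the pseudocount shrinks where TPM is low.

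Other nuclear lncRNAs were mostly of low level. Of 10 listed, 9 were found, 6 were past 2-fold towards the PABPN IP and 0 towards the PABPC IP, with a median partition of 1.17, where the lncRNAs of the set had 0.44 and 26.7% of them past 2-fold towards the PABPN IP. FTX, from the X inactivation centre, had 2.21, PVT1 1.86 and FIRRE, which anchors chromatin, 1.74. All 6 had under 5 TPM in at least 1 IP and so lay outside that set, and of the 3 that reached it (JPX 0.96, HOTAIR 0.46 and DLEU2 0.25) 0 were past 2-fold. The median EPKM of the list was 0.00186 (Input), 0.00440 (PABPC IP) and 0.00319 (PABPN IP), where the lncRNAs of the set had 0.00315, 0.0200 and 0.0147. Single RNAs lay above these, among them DLEU2 with 0.0695 (Input) and 0.0744 (PABPC IP), and HOTAIR with 0.0819 (PABPN IP).

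Among 9 of 10 listed cytoplasmic lncRNAs in the table, 0 were past 2-fold towards the PABPN IP and 1 towards the PABPC IP, SNHG5 at -1.18, with a median of 0.18, where the shares of all lncRNAs of the set were 26.7% and 1.60%. GAS5, a snoRNA host, had 0.18, DANCR -0.88 and ZFAS1 0.95. Their median EPKM was 0.0513 (Input), 0.0150 (PABPC IP) and 0.0446 (PABPN IP), where the lncRNAs of the set had 0.00315, 0.0200 and 0.0147. The EPKM was less uniform than the partition, as GAS5 had 0.171 in the Input but 0.00193 in the PABPC IP. SNHG6 had 0.316 in the PABPC IP and was listed at 0 in the PABPN IP. Many snoRNA hosts carry short reading frames and are held by ribosomes.

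Messenger RNAs of proteins of nuclear bodies and well-translated mRNAs were compared too. Of 10 mRNAs of paraspeckle and speckle proteins, 2 were past 2-fold towards the PABPN IP, those of the speckle scaffolds SON (2.85) and SRRM2 (2.64), and 1 towards the PABPC IP, that of the splicing factor SRSF1 (-1.13), where the shares of all genes were 16.8% and 13.0%. The mRNAs of the paraspeckle proteins NONO (-0.62), SFPQ (0.65) and PSPC1 (-0.12) were within 2-fold. Of 8 well-translated mRNAs, 7 were past 2-fold towards the PABPC IP, against 13.0% of all genes, with a median of -1.55, among them EEF1A1 (-1.82) and ACTB (-1.47), and ENO1 had -0.80. All 6 members had a higher partition than each of these mRNAs. So had the median gene (0.00) and the median lncRNA (0.44) of the set, and this does not set the members apart. In EPKM, NORAD lay within their range, below their median of 0.363 in the Input at 0.225, and in the PABPC IP, at 0.243, above 4 of the 8.

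**Figure D5:**
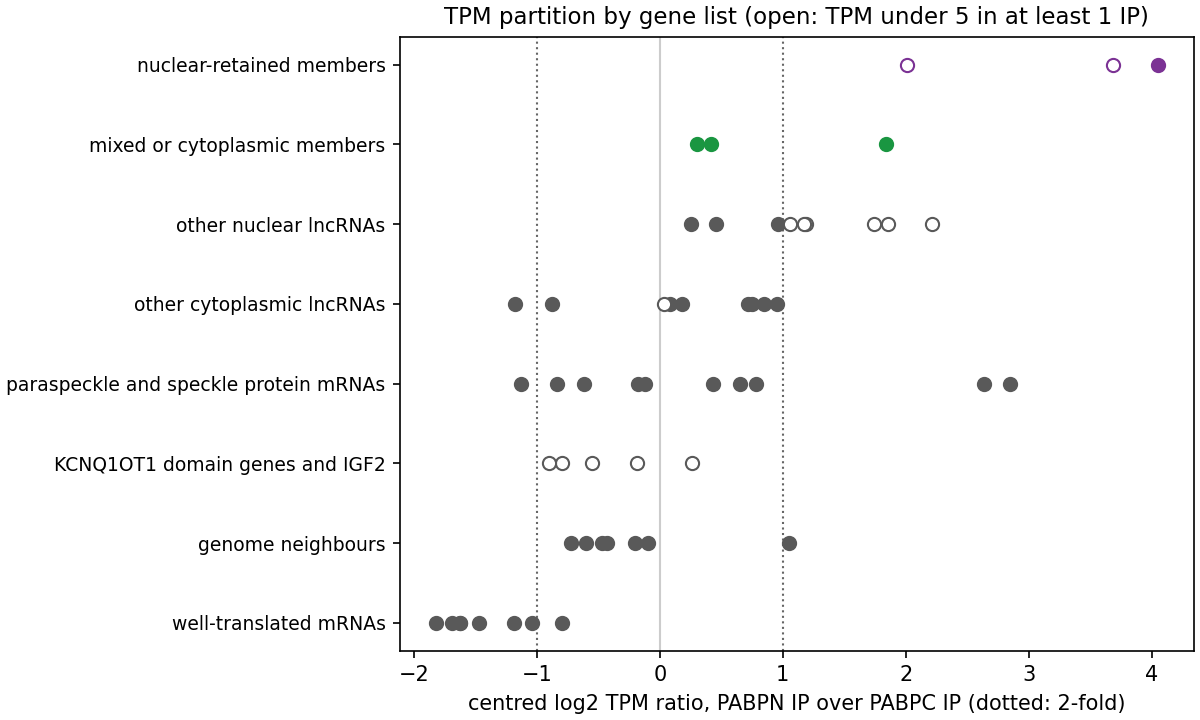
Centred log2 TPM ratio of the PABPN IP over the PABPC IP for the members and for the genes of 6 lists (1 point per gene; open points had under 5 TPM in at least 1 IP; dotted lines mark 2-fold). MALAT1, NEAT1 and KCNQ1OT1 lie from 2.01 to 4.05, and 7 of 8 well-translated mRNAs lie left of the dotted line at -1, as do 13.0% of all genes.

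The lncRNAs most like each member were taken by Euclidean distance over log2(TPM + 0.5) in the 3 fractions. For MALAT1 they were SNHG17 (distance 1.03) and ENSG00000276216 (1.84). For NEAT1 they were MRPL20-DT (0.64) and LINC01424 (0.81), with 55.2 and 52.5 TPM in the PABPN IP. The candidates had at least 5 TPM in both IPs, which KCNQ1OT1 did not reach in either. None could therefore be near KCNQ1OT1, and ZNF516-AS1 came nearest at 3.67.

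GAS5 (0.34) and HOTAIRM1 (0.75) were nearest to NORAD, HSD17B1-AS1 (0.30) and ENSG00000261840 (0.35) were nearest to OIP5-AS1, and SNHG9 (0.68) was near TUG1. A similar TPM pattern did not always go with similar editing. In the PABPC IP the EPKM of GAS5 was 0.00193 where NORAD had 0.243, and SNHG9 was listed at 0 there where TUG1 had 0.0585. HOTAIRM1, with 0.132 in the PABPC IP and listed at 0 in the PABPN IP, had the direction of NORAD. Near OIP5-AS1, HSD17B1-AS1 (0.0995, and listed at 0) had its direction, and ENSG00000261840 (0.0218 and 0.115) the opposite one.

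Length and base composition differ among the members as well. The longest annotated transcripts span 91667 bases for KCNQ1OT1, 22743 for NEAT1, 10434 for MALAT1 and 7474 for TUG1, all above the lncRNA median of 1692. C, the base that APOBEC1 edits, made up 17.9% of MALAT1, 17.6% of NORAD and 18.4% of OIP5-AS1, and 20.4% of NEAT1, 21.4% of KCNQ1OT1 and 21.6% of TUG1, against a median of 25.4% in the lncRNAs and 23.5% in protein-coding genes. NORAD had the lowest share of C of the 6 and their highest EPKM in the PABPC IP. Its EPKM per 100 TPM there (0.137) was close to the median over all genes (0.138). Whether base composition bears on the EPKM was not tested. The longest run of A was 29 bases in OIP5-AS1 and in KCNQ1OT1, 22 in NEAT1, 18 in TUG1, 13 in MALAT1 and 10 in NORAD, and the lncRNA median was 6. The order of these runs was not that of the partition.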

How the data were processed

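Ribo-STAMP reads were processed by the authors, who aligned them to hg38 with STAR and counted with featureCounts 2.0.2 on an annotation made from GENCODE release 34 and added genes. The deposited normalized EPKM is a signal per gene and fraction (C-to-U edits scaled to gene length and mapped reads, minus the control). The deposited TPM are the authors' averages per fraction, and which samples entered them is not stated. The files hold no counts, and the study gives library depth only as a minimum and an average over samples. All 4 columns used are pooled, so no test was run. The 1964 genes without a TPM entered no TPM ratio.

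Members and lists were chosen by name with earlier results of these data known, with up to 2 of the nearest lncRNAs named per member. Calls past 2-fold used centred log2 ratios with a pseudocount of 0.5. The formulas were tested on simulated data. Positions and sequences came from GENCODE release 44 on hg38. Python 3.11.15, NumPy 2.4.6, pandas 2.3.3, pysam 0.24.0, samtools 1.23.1 and matplotlib 3.10.9 were used.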

Additional observations from a re-analysis of the deposited data

How the results depend on the processing

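No paired analysis was possible because each column pools the replicates, and leaving out a replicate was not possible for the same reason. The read counts behind each gene are not known. Of 23 counts of members recomputed under an alternative, 3 moved by more than 1.5 times. Without centring, 6 members in place of 2 were 2-fold higher in the PABPN IP than in the Input, and 1 in place of 3 was 2-fold lower in the PABPC IP, as was 1 with a pseudocount of 5. Of 84 log2 values of single genes, 4 changed sign, and 0 of those past 2-fold did. The cause of these moves was not tested.

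The median of NORAD, OIP5-AS1 and TUG1 minus that of MALAT1, NEAT1 and KCNQ1OT1 kept its direction under every alternative run. For the log2 partition (-3.27) it was -2.40 with means, -2.29 with a pseudocount of 5, and between -3.45 and -2.43 when 1 RNA was left out. For EPKM in the Input (0.0463) it was 0.0798 with means and 0.00866 to 0.129 with 1 RNA left out, the lowest without KCNQ1OT1. In the PABPC IP (0.146) it was 0.147 with means and 0.0998 to 0.192 with 1 left out. In the PABPN IP (0.0530) it was 0.0337 with means and 0.0273 to 0.0605 with 1 left out.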
